A study of Mus musculus with 6 samples.

Results

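Spliced intergenic long non-coding RNA (lncRNA) transcripts are described here in mouse left ventricle. A transcript of the deposited lncRNA table was included when its counts over all 6 libraries summed to 60 or more, when its interval overlapped no interval of the deposited gene table on either strand, and when its length was shorter than its interval. The table lists 43234 transcripts, of which 16160 had a summed count of at least 60 and 3235 of those lay outside every gene-table interval. Of these, 662 were shorter than the interval they span and make up the set, 4.10% of the 16160. The other 2573 intergenic transcripts fill their whole interval and are called unspliced here, and 12925 overlap a gene. The transcripts were chosen by their summed counts, so their level is not a finding. The choice did not use the contrast between the groups.

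The libraries came from male wild-type C57BL/6 mice, an inbred strain, given as 8 weeks old. The mice had transverse aortic constriction (TAC), a ligature that narrows the aorta and raises the load on the left ventricle, or a sham operation without the ligature. The tissue was taken 6 weeks later, and 3 libraries of total RNA are labelled TAC and 3 are labelled Sham. The labels do not say whether the libraries are separate mice, and p-values measure only how far these 6 libraries spread.

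LncRNAs are transcripts with no long open reading frame that are usually made by RNA polymerase II, and many are capped, spliced and polyadenylated like messenger RNAs. Those between genes are often called lincRNAs. As a class they are less abundant and more tissue-restricted than messenger RNAs, and many remain in the nucleus. In heart muscle several lncRNAs are known to bind chromatin regulators or to act from their site of transcription on a neighbouring gene, and others serve as hosts from which microRNAs are cut.

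The lncRNA table gives neither strand nor exons, and sequence was taken where a RefSeq entry (GRCm38.p6) shared the start of a transcript. A start within 100 bases of a RefSeq start site was found for 97 of the 662 transcripts, at 63 RefSeq genes. The windows below run from 250 bases before to 50 bases after the RefSeq start, 5′ to 3′, and capitals mark motifs found on either strand. They were chosen after their values were seen: Gm36827 and Gm19378 for their level, Gm35546 for its number of isoforms, and Gm36149 and Gm35922 because they hold a MEF2 site. Gm36827 lies on the minus strand at chr10:56982182-56982481, with capitals at a TATA box and a GATA site, both read on the other strand. The other windows lie on the plus strand: Gm19378 at chr15:89767365-89767664 with GATA sites, and Gm35546 at chr1:186587072-186587371 with a GATA site and a CCAAT box. Gm36149 at chr5:111490630-111490929 has a MEF2 site followed by a GATA site. Gm35922 at chr19:28770516-28770815 has a GATA site followed by a MEF2 site.
Gm36827: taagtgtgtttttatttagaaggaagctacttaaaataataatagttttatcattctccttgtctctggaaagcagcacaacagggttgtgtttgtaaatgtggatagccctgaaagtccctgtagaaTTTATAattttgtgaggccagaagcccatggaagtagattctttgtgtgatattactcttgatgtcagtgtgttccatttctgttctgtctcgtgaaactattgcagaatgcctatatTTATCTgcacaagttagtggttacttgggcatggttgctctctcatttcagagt
Gm19378: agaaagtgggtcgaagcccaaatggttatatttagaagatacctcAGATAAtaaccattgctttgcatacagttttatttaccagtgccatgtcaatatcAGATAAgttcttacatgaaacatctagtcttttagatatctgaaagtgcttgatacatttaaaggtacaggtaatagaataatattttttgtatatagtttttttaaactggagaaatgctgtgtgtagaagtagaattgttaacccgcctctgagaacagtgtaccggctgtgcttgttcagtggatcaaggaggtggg
Gm35546: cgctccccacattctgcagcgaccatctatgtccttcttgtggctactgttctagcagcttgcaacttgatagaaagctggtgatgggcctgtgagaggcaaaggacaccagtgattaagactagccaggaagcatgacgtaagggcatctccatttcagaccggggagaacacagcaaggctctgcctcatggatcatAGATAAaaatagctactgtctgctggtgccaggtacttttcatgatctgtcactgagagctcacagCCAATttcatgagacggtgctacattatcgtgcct
Gm36149: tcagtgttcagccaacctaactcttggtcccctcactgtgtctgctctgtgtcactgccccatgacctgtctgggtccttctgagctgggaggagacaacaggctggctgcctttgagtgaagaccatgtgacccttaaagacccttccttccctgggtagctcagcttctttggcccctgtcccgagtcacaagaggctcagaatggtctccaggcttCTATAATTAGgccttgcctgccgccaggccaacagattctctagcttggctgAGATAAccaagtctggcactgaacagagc
Gm35922: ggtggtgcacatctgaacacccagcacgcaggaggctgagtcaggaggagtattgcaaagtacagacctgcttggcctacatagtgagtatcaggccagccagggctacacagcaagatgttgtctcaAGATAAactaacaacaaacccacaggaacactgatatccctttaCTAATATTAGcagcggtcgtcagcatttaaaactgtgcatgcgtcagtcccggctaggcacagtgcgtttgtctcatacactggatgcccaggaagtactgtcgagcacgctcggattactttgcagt

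MEF2 factors are regulators of muscle genes, GATA factors include the cardiac regulator GATA4, and the TATA, GC and CCAAT boxes are core or proximal promoter elements. The MEF2 site, which reads the same on both strands, was in 6 of the 63 windows (9.52%), those of Gm30476, Gm35228, Gm35922, Gm36148, Gm36149 and Gm4544. It was in 0.559% of 27025 RefSeq windows of the same length, with 1 window per gene. The 63 windows belong to transcripts chosen for their counts in left ventricle, while the 27025 were not chosen by level. GATA sites (AGATAA) were in 17.5% of the 63 and 11.3% of all windows. TATA boxes (TATAAA) were in 20.6% and 14.1%, CCAAT boxes (CCAAT) in 41.3% and 37.8%, and TEAD sites (CATTCC) in 11.1% and 14.6%. SRF CArG boxes were in 3.17% and 1.54%. GC boxes (GGGCGG) were in 11.1% of the 63 windows and 35.6% of all windows. The median GC content was 49.3% in the 63 windows and 52.7% in all. The 7 motifs were listed after the files were seen, and a match describes letters, not a bound site.

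Transcripts at the MEF2 windows of Gm35922, Gm4544 and Gm36149 did not share a pattern between the groups. Those at the other MEF2 windows are not described here. Levels are given as CPM, counts divided by library size, with library sizes scaled by the trimmed mean of M-values (TMM). NONMMUT034336.2, which starts at Gm35922, was at 0.225, 0.475 and 0.0456 CPM in libraries labelled TAC 1, 2 and 3, and at 0.808, 1.19 and 0.774 CPM in libraries labelled Sham 1, 2 and 3. NONMMUT025138.2, at Gm4544, was at 2.30, 2.28 and 1.5 CPM in TAC and at 1.46, 0.522 and 0.774 in Sham. The groups thus did not overlap for either, in opposite directions, and neither difference passed the test over all transcripts (edgeR adjusted p = 0.316 and 0.331). NONMMUT053811.2, at Gm36149, was at 3.78, 2.28 and 5.65 CPM in TAC and 2.02, 2.35 and 1.71 CPM in Sham, where the groups overlap.

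RefSeq places 3 microRNAs inside 2 of the transcripts. NONMMUT015668.2, at chr12:108836000-108839257, spans miR-345, and NONMMUT096254.1, at chr15:85703773-85707524 over the RefSeq lncRNA gene Lncppara, spans let-7c-2 and let-7b. The let-7 family restrains growth and developmental timing genes. The mature RNAs follow, from RefSeq, with the seed at bases 2 to 8 in capitals, and the let-7 pair shares its seed.
mmu-miR-345-5p: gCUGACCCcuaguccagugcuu
mmu-miR-345-3p: cCUGAACUaggggucuggagac
mmu-let-7c-5p: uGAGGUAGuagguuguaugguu
mmu-let-7b-5p: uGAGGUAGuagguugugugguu

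The counts are of the long transcripts, not of the mature microRNAs. The transcript spanning miR-345 was at 5.95, 5.89 and 9.07 CPM in libraries labelled TAC, and 5.15, 4.14 and 4.70 in libraries labelled Sham. All TAC values lay above all Sham values, and the log2 difference of 0.58 ± 0.22 (SE, n = 3 against 3) did not pass (edgeR adjusted p = 0.364). The transcript spanning let-7c-2 and let-7b was at 4.41, 3.13 and 2.82 CPM in TAC and 3.89, 6.75 and 3.26 in Sham, with overlapping groups and a log2 difference of -0.43 ± 0.32 (edgeR adjusted p = 0.637).

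The 662 transcripts were mostly of low level and moderate size. Their median interval was 5268 bases, their median length 2177 and the median length missing from the interval 1837 bases (5 to 225546). At 62 of them (9.37%) under 50 bases were missing, less than a typical intron, so the label spliced rests there on a short gap, while 393 missed at least 1000 bases and 9 at least 100000. The median summed count was 145 (60 to 75877) and the median level 0.625 FPKM (a level corrected for transcript length and library size), with 214 transcripts at 1 FPKM or more and 11 at 10 or more. A library with a count of 0 was found for 144 transcripts, and 305 had at least 10 counts in every library. Of the 662, 649 have identifiers of the NONCODE database and 13 carry MSTRG identifiers, the form that StringTie gives to transcripts it assembles.

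The label intergenic holds only against the gene table. RefSeq models overlapped 450 of the 662 (68.0%): 284 lie on a RefSeq lncRNA, 123 on a protein-coding gene, 27 on a pseudogene, 6 on a transcribed pseudogene, 8 on a miscellaneous RNA, 1 on a microRNA and 1 on a small nucleolar RNA, and 212 on no RefSeq gene. For 95 of the 123, a gene of the same symbol is in the gene table with an interval that ends short of the transcript. The nearest gene-table interval was 8827 bases away at the median, and 262 transcripts (39.6%) lay within 5000 bases of one. Many overlap one another: 417 overlap no other member, and the other 245 fall into 87 loci of up to 14 transcripts, so that there are 504 loci in all. Transcripts joined by overlapping intervals are called isoforms here. Without strand and exons it is not known whether they belong to 1 gene. The locus between Zfp825 and Erap1, for example, joins transcripts over the RefSeq genes Gm20590 and Gm46430. Isoforms of a locus may share sequence and reads, and their counts are uncertain to that extent.

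The transcripts held 35596 to 57197 counts per library, 2.30% to 2.91% of the 1547100 to 2397057 counts of the lncRNA table. Gene counts summed to 17399510 to 28401399 per library. Replicate libraries differed beyond counting noise (chi-square per transcript of 8.52 to 16.2 within a group). Several genes known to rise under pressure overload or in scarring went against the labels, Nppa and the activated fibroblast markers given below among them. The groups overlapped for Myh7, a myosin gene also used under load (log2 -0.69 ± 1.37, edgeR adjusted p = 0.814). Nppa, the atrial natriuretic peptide gene, was at 83.9 ± 17.0 CPM in libraries labelled TAC, and 1087 ± 704 in libraries labelled Sham (SD, n = 3; edgeR adjusted p = 0.0222). Directions are therefore given for the library labels. Ventricular cardiomyocyte markers together took 135200 to 161131 CPM in TAC and 112631 to 129970 in Sham, while 8 skeletal muscle markers together took 0.822 to 1.62 CPM over the 6 libraries, with Myh4 at 0.

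A single transcript, NONMMUT009139.2, gave 22.1% to 31.8% of all CPM of the set in each library. It spans chr11:31545793-31549651, between Stc2, 175718 bases away, and Bod1, 115529 bases away, and overlaps no RefSeq gene. Its deposited level was 289, 272 and 325 FPKM in libraries labelled TAC 1, 2 and 3, and 365, 339 and 273 FPKM in libraries labelled Sham 1, 2 and 3. The groups overlap, and the log2 difference of -0.26 ± 0.17 did not pass (edgeR adjusted p = 0.572). Next by level came NONMMUT096375.1 (chr15:89767563-89768777, Gm19378), with a mean of 64.9 FPKM and values of 55.5 to 78.5 in TAC and 61.2 to 72.9 in Sham, which overlap. The plot of the 12 highest transcripts shows the gap between the first and the rest.

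**Figure D1:**
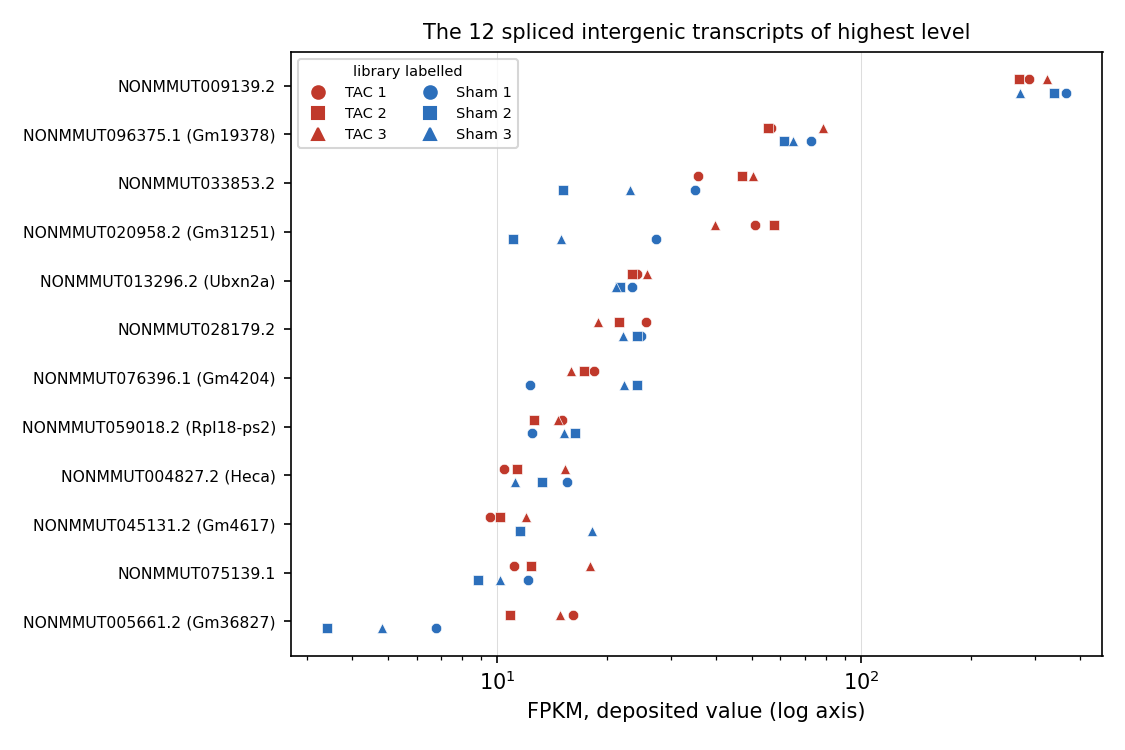
Deposited FPKM (horizontal, log axis) of the 12 transcripts of highest mean level, with a point for each library, red for those labelled TAC and blue for those labelled Sham, and the overlapping RefSeq gene in parentheses. NONMMUT009139.2 lies at 272 to 365 FPKM, and the groups do not overlap for NONMMUT033853.2, NONMMUT020958.2, NONMMUT013296.2 and NONMMUT005661.2 on this scale.

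NONMMUT020958.2 (chr14:55000445-55002959, Gm31251) lies 5810 bases from Myh7, the slow myosin heavy chain gene that the mouse ventricle uses before birth and under load. It had 51.0, 57.5 and 39.6 FPKM in TAC 1, 2 and 3 and 27.3, 11.1 and 15 in Sham 1, 2 and 3, so every TAC value was above every Sham value. Its log2 difference was 1.36 ± 0.36 (edgeR adjusted p = 0.243). That of Myh7 was -0.69 ± 1.37 (edgeR adjusted p = 0.814), so its direction is not settled. Myh7 was at 212, 65.7 and 6050 CPM in TAC 1, 2 and 3 and 1816, 6323 and 2072 in Sham 1, 2 and 3, where the groups overlap. NONMMUT033853.2 (chr19:9829709-9836894), 10667 bases from the secretoglobin gene Scgb2a2, had 35.5 to 50.6 FPKM in TAC and 15.1 to 34.9 in Sham. Its groups overlap as TMM-scaled CPM, with a log2 difference of 0.75 ± 0.32 (adjusted p = 0.397).

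The other transcripts of this level differed less. NONMMUT013296.2 (chr12:4876308-4878007) and NONMMUT004827.2 (chr10:17899072-17899905) lie on the RefSeq genes Ubxn2a and Heca, 1024 and 560 bases from their gene-table intervals. NONMMUT028179.2 (chr17:10203891-10205168) lies 1302 bases from Qk, which encodes the RNA-binding protein quaking, and misses 37 bases of its interval. NONMMUT076396.1, NONMMUT059018.2 and NONMMUT045131.2 lie on the pseudogenes Gm4204, Rpl18-ps2 and Gm4617. Their mean levels and that of NONMMUT075139.1 (chr1:23267275-23270829) were between 12.1 and 23.3 FPKM. The log2 differences of these 7 lay between -0.48 and 0.29, and none passed (edgeR adjusted p of 0.439 to 0.947), and as TMM-scaled CPM the groups did not overlap for NONMMUT045131.2 alone. Neighbours in this order of level did not differ beyond their spread, apart from the steps that follow NONMMUT009139.2 and NONMMUT096375.1.

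The comparison of TAC with Sham asks which lncRNAs differ in a ventricle under pressure. It was tested with edgeR's quasi-likelihood test over the whole lncRNA table, where 16035 transcripts and 613 of the 662 passed the filter on low counts, at a Benjamini-Hochberg adjusted p under 0.05. Of the 613, 1 passed, NONMMUT019347.2, higher in the libraries labelled TAC, against 0.106% of all transcripts tested (0.0499% higher in TAC). DESeq2 called 19 of them, 15 higher in TAC, against 1.5% of all transcripts. At an unadjusted p under 0.05 there were 103, of which 73 were higher in TAC and 30 in Sham, 16.8% of the 613 against 12.6% of all (6.7% and 5.85%). The values of the groups did not overlap for 141, 99 higher in TAC and 42 higher in Sham, against 20.6% of all transcripts (10.3% in each direction). In a fit that kept all 662 transcripts, 1 passed, against 0.0990% of 16160, and 148 had groups that do not overlap, against 20.4%.

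The set lay toward the libraries labelled TAC as a whole. The log2 difference was positive for 380 of the 613 (62.0%) and its median was 0.22, against 50.4% and 0.00 over all 16035 transcripts. The median was 0.03 over 2472 unspliced intergenic transcripts and -0.01 over 12494 gene-overlapping ones. Over 17 alternative fits the median of the set stayed 0.06 to 0.29 above that of all transcripts, and it was 0.14 without the library Sham 2. With all 662 transcripts in the fit, 410 were positive and the median was 0.23. Isoforms of a locus may share reads, and with each locus summed 296 of 477 loci were positive (62.1%), with a median of 0.20. The median deviation of the set from the mean over libraries was 0.19, 0.16 and 0.16 in TAC 1, 2 and 3 and 0.10, -0.15 and -0.07 in Sham 1, 2 and 3. Sham 1 was thus nearer to the TAC libraries than Sham 2 and Sham 3 were.

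Markers of cell types differed in level between the labels in the same libraries. Of all 15198 genes tested, 1.43% passed in edgeR. The share of all genes at an unadjusted p under 0.05 is not given here, so such counts below stand without a background. All 10 ventricular cardiomyocyte markers had a positive log2 difference (median 0.35), and edgeR passed 0 of them (6 at an unadjusted p under 0.05). Of 10 activated fibroblast markers 8 passed, all lower in TAC (median -3.51), with sums of 202 to 409 CPM in TAC and 1703 to 3607 in Sham. All 10 macrophage markers had negative differences (median -0.68) and edgeR passed 0 (7 at an unadjusted p under 0.05), with sums of 175 to 315 CPM in TAC and 398 to 431 in Sham. All 10 resting fibroblast markers had negative differences (median -0.48, 7 at an unadjusted p under 0.05), with sums of 1421 to 1910 CPM in TAC and 2042 to 2598 in Sham, and Mfap5 passed. All 6 atrial markers tested also had negative differences (median -1.07, 3 at an unadjusted p under 0.05), with sums of 83.3 to 156 CPM in TAC and 675 to 1935 in Sham, and Nppa passed. Most of these sums was Nppa, at means of 83.9 CPM in TAC and 1087 in Sham. The next highest mean was 27.1 CPM, that of Dkk3 in Sham, and Sln, Myl4 and Myl7 differed by less than their SE. In edgeR 0 of 10 endothelial markers passed (1 at an unadjusted p under 0.05). In bulk tissue fewer cells of a type and less RNA per cell cannot be told apart, and the part of these markers in the shift of the set was not tested. Of the genes that act on lncRNAs, 0 of 19 in nuclear RNA decay and 0 of 24 splicing factors passed in edgeR (3 of each at an unadjusted p under 0.05), with medians of -0.04 and 0.11. Of 20 known lncRNA genes tested, 1 passed, Dnm3os, which was lower in TAC.

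**Figure D2:**
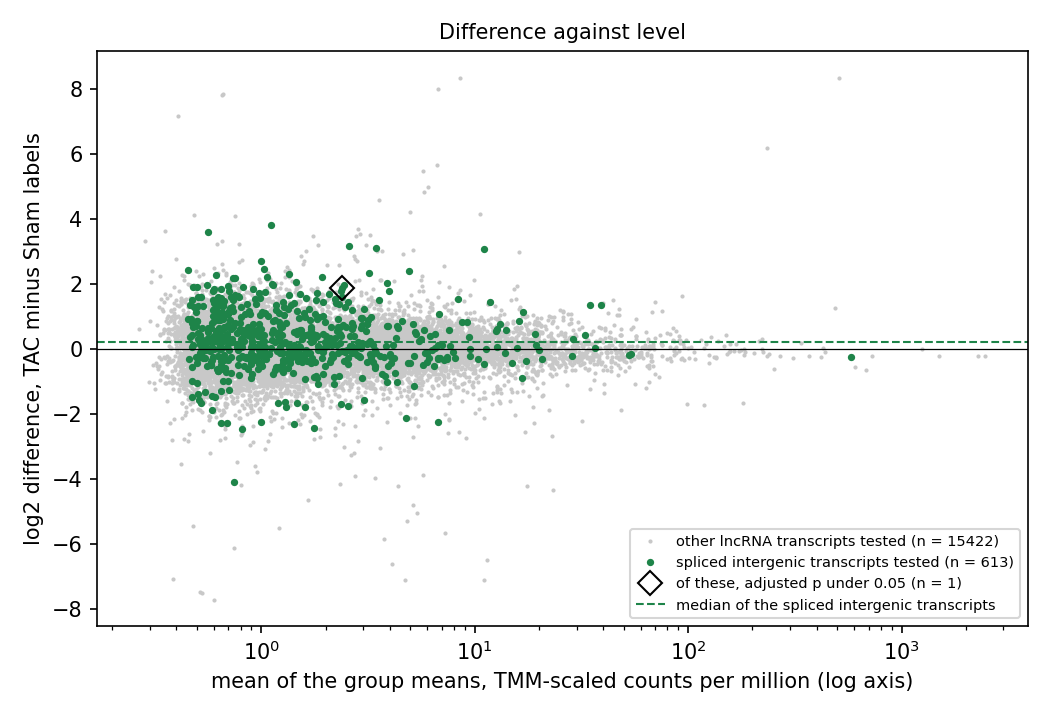
Log2 difference between libraries labelled TAC and Sham (vertical) against level in TMM-scaled CPM (horizontal, log axis), with 613 spliced intergenic transcripts in green and the 15422 other lncRNA transcripts tested in grey. The dashed line is the median of the green points, 0.22, and the diamond is NONMMUT019347.2.

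NONMMUT019347.2 rose in the libraries labelled TAC. It spans chr13:112764848-112774457 over the RefSeq lncRNA Gm41067, with 1791 of 9610 bases in the transcript. Its level was 3.78, 3.75 and 3.78 CPM in TAC 1, 2 and 3 and 1.06, 0.895 and 1.11 CPM in Sham 1, 2 and 3. The values within each group were close and the groups far apart, from 79 to 84 counts in TAC and 20 to 24 in Sham. The transcript is named for passing the test, so the closeness of its values adds no separate support. The fitted difference was 3.70-fold (log2 1.89 ± 0.19, edgeR adjusted p = 0.0236). It no longer passed when any 1 of the 6 libraries was left out (adjusted p of 0.0705 to 0.102, log2 1.79 to 1.94). Its neighbours Slc38a9, a lysosomal amino acid transporter gene 26104 bases away, and Ppap2a, a lipid phosphatase gene 26436 bases away, had log2 differences of 0.09 and -0.26 (adjusted p = 0.762 and 0.368). Its overlapping isoform NONMMUT090712.1 had a log2 difference of 1.59 (adjusted p = 0.276), and the summed locus passed (adjusted p = 0.0420).

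NONMMUT025736.2 (chr16:18208265-18215187, 4933432I09Rik) came next by p, and is named after its values were seen because its level of 0.359 FPKM is under that required of named transcripts. It was at 3.47, 3.99 and 3.55 CPM in TAC and 1.26, 0.895 and 1.05 in Sham, again without overlap (log2 1.78 ± 0.21, edgeR adjusted p = 0.0575). Summed with its isoform, its locus passed (adjusted p = 0.0420), and these were the 2 of 477 loci that did, against 0.126% over all.

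The Gm36703 locus, chr13:102349682-102358936, held 6 isoforms, all with positive differences (log2 1.08 to 2.71). Its nearest genes are 233646 bases away or more. NONMMUT018928.2 was at 2.12, 1.85 and 1.23 CPM in TAC and 0.202, 0.298 and 0.276 CPM in Sham (log2 2.71 ± 0.36, edgeR adjusted p = 0.0779). NONMMUT018932.2, the most abundant isoform, was at 5.18, 6.65 and 6.88 CPM in TAC and 2.02, 0.858 and 1.71 in Sham (log2 2.04 ± 0.33, adjusted p = 0.130). Neither group pair overlaps. The summed locus had 16.4 ± 1.86 CPM in TAC and 4.72 ± 2.22 in Sham (SD, n = 3) and a log2 difference of 1.80 ± 0.38 that did not pass (adjusted p = 0.191). DESeq2 called both isoforms (adjusted p = 0.00186 and 0.000104).

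At Gm36827, whose start is printed above, the isoforms had positive estimates of unequal size. The main isoform NONMMUT005661.2 (chr10:56967404-56982194) was at 59.1, 39.3 and 51.1 CPM in TAC and 26.9, 13.7 and 17.6 in Sham, a log2 difference of 1.36 ± 0.29 (edgeR adjusted p = 0.191). The isoforms NONMMUT005662.2 and NONMMUT005663.2 were at 0.59 and 0.25, with groups that overlap, and all 7 isoforms summed were at 0.98 ± 0.33 (adjusted p = 0.305). The nearest gene is 219135 bases away.

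The Gm4151 locus lies 46029 bases from Gata4, which encodes a transcription factor of heart muscle and itself had a log2 difference of -0.22 (adjusted p = 0.511). Of its 5 isoforms, NONMMUT021228.2 was at 1.58, 1.95 and 2.64 CPM in TAC and 0.808, 0.597 and 0.553 in Sham (log2 1.65 ± 0.31, edgeR adjusted p = 0.171). The gene nearest to NONMMUT021228.2 is Blk, 35879 bases away, which did not pass the filter on low counts. NONMMUT093136.1 was at 3.11, 2.28 and 4.37 CPM in TAC and 1.36, 1.34 and 0.940 in Sham (log2 1.41 ± 0.30, adjusted p = 0.194). The groups overlap for NONMMUT021229.2, the most abundant isoform per length, and for NONMMUT093134.1 (log2 1.43 and 0.72, adjusted p = 0.545 and 0.818). NONMMUT021230.2 went the other way (log2 -2.28) with at most 1.34 CPM in any library. NONMMUT027970.2 (chr17:3291552-3293519) and NONMMUT006538.2 (chr10:82611546-82613560), on no RefSeq gene, completed the 8 of smallest p toward TAC, with log2 differences of 1.83 and 1.10 (adjusted p = 0.188 and 0.209).

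Of the 8 transcripts of smallest p toward Sham, none passed the edgeR test, and the groups did not overlap for any because the rule asked for that. NONMMUT009687.2 (chr11:51903076-51909635, Gm39822) was at 0.631, 0.617 and 0.501 CPM in libraries labelled TAC, and 1.82, 2.80 and 1.44 in libraries labelled Sham (log2 -1.79 ± 0.33, adjusted p = 0.171). NONMMUT123540.1 (chr6:31059281-31062620), 471 bases from Gm27019, was at 1.67, 1.23 and 1.64 CPM in TAC and 3.08, 6.19 and 4.31 in Sham (log2 -1.58 ± 0.30, adjusted p = 0.173). DESeq2 called both (adjusted p = 0.0382 and 0.0117). Sham 2 was the highest library for each.

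NONMMUT021099.2 (chr14:59640440-59643413, pseudogene Gm19716) lies 4117 bases from Atp8a2, a phospholipid flippase gene. It was at 3.02, 3.23 and 3.23 CPM in TAC and 5.65, 5.34 and 4.86 CPM in Sham (log2 -0.74 ± 0.16, edgeR adjusted p = 0.189). Atp8a2 fell in TAC by 0.77 on the log2 scale (adjusted p = 0.0394), so transcript and gene had differences of like size. NONMMUT009276.2 (chr11:35709562-35712030), 1054 bases from Slit3, which encodes a secreted guidance protein, was at 2.70, 2.14 and 3.33 CPM in TAC and 5.10, 4.78 and 3.98 in Sham. Its log2 difference was -0.76 and that of Slit3 was -0.59 (adjusted p = 0.261 and 0.122). NONMMUT023035.2, NONMMUT004237.2, NONMMUT029111.2 and NONMMUT034337.2 were at -1.07, -1.74, -0.87 and -1.79 (adjusted p of 0.185 to 0.276). Of these, NONMMUT004237.2 is an isoform of the Gm35546 locus and had 54.5% of its counts in Sham 2. It was at 2.37, 7.28 and 2.16 CPM in Sham 1, 2 and 3, so the size of its difference rests largely on Sham 2. NONMMUT034337.2 is a second transcript of Gm35922, the gene with the MEF2 site printed above, at 1.40, 0.475 and 0.273 CPM in TAC and 2.27, 2.43 and 2.76 in Sham.

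**Figure D3:**
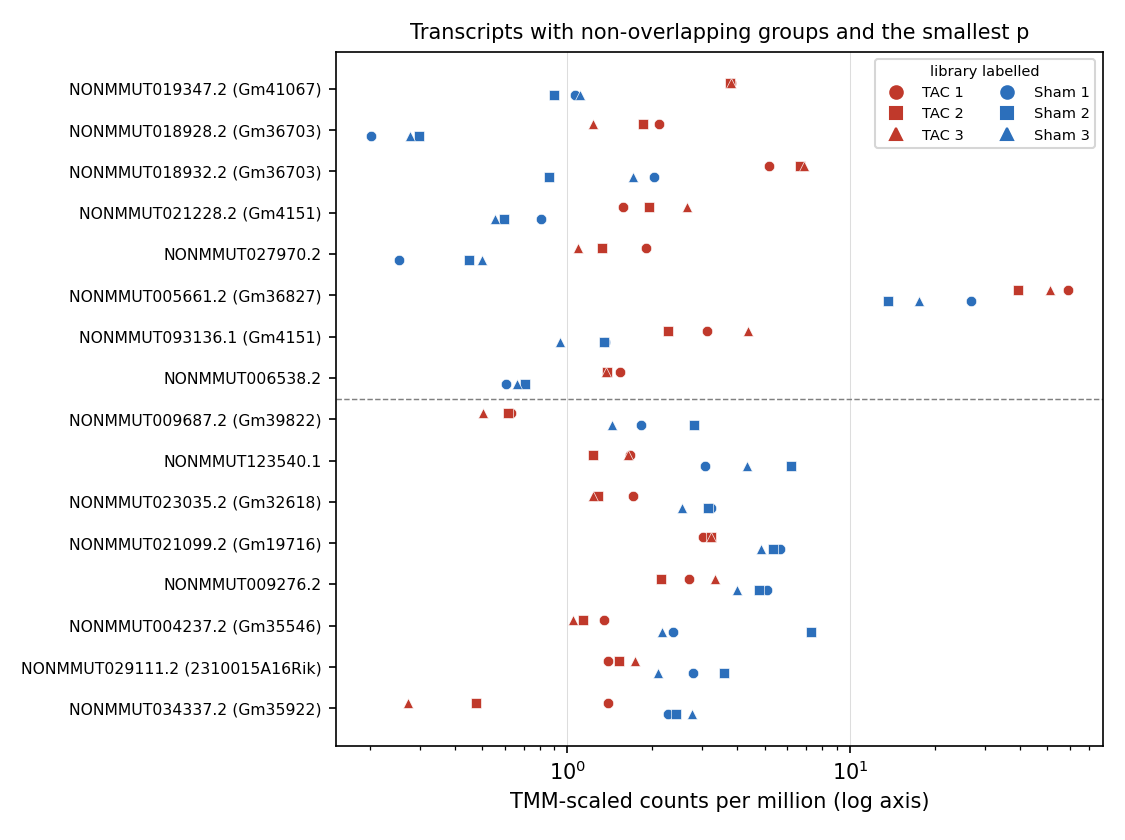
TMM-scaled CPM (horizontal, log axis) in each library for the 8 transcripts of smallest p in each direction, higher in TAC above the dashed line and higher in Sham below it. The 3 TAC values of NONMMUT019347.2 coincide at 3.75 to 3.78 CPM.

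Isoforms of one locus did not always lean the same way. Gm35546, chr1:186587244-186617166, is the locus of most isoforms, 14, of which 13 start at the RefSeq site printed above. It lies 5625 bases from Tgfb2, a ligand of the TGF-beta family that acts in heart development and fibrosis. Among its 13 tested isoforms the log2 difference ran from -2.24 to 1.3, with 5 positive. NONMMUT004231.2, at the low end, was at 2.30, 2.61 and 2.19 CPM in TAC and 3.53, 25.4 and 4.42 CPM in Sham 1, 2 and 3, so its size rests on Sham 2. NONMMUT004235.2, the most abundant per length, was at 7.57, 3.32 and 5.01 CPM in TAC and 6.26, 9.03 and 7.57 in Sham (log2 -0.52 ± 0.32, edgeR adjusted p = 0.551). The summed locus was at -0.43 ± 0.33 (adjusted p = 0.641) and Tgfb2 at -2.04 (adjusted p = 0.0505).

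The Gm32027 locus, chr19:36214898-36264244, held 8 isoforms and lies 95053 bases from Ankrd1, a stretch-responsive cardiac gene. Its summed level was 11.2, 12.5 and 9.93 CPM in TAC and 7.97, 6.11 and 7.69 in Sham, without overlap (log2 0.62 ± 0.18, edgeR adjusted p = 0.258). Ankrd1 itself went the other way and fell in TAC by 1.95 on the log2 scale (adjusted p = 0.0492). The most abundant isoform per length, NONMMUT034559.2, was at 2.75, 2.61 and 1.64 CPM in TAC and 1.16, 0.784 and 1.05 in Sham (log2 1.23 ± 0.29, adjusted p = 0.215).

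The order of isoforms by level could also change between libraries of 1 group. A locus of 5 isoforms ends 1175 bases before the gene-table interval of Myl2, the ventricular myosin light chain gene. All 5 overlap the RefSeq model of Myl2 itself. Of these, NONMMUT054335.2 was at 10.9, 41.8 and 13.5 CPM in TAC 1, 2 and 3 and 28.7, 4.78 and 15.1 CPM in Sham 1, 2 and 3. Its range was wide within each group. NONMMUT054336.2 of the same locus was steadier, at 19.7, 19.1 and 23.6 CPM in TAC and 15.1, 8.95 and 10.4 in Sham. Both were chosen after their values were seen. Over all loci of more than 1 isoform, the median biological coefficient of variation, the spread between replicates beyond counting, was 0.317 for the summed locus and 0.432 for its isoforms. It was 0.335 for transcripts that overlap no other member.

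**Figure D4:**
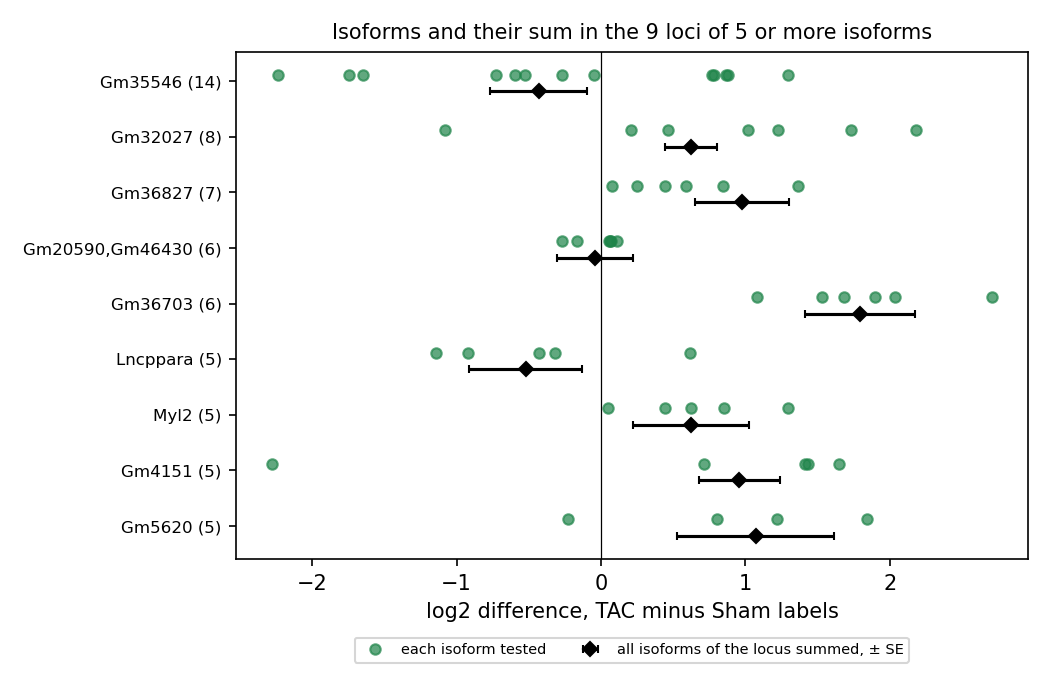
Log2 difference between libraries labelled TAC and Sham (horizontal) for each tested isoform (green) and for all isoforms of the locus summed (black, ± SE) in the 9 loci of 5 or more isoforms, named by RefSeq gene with the number of isoforms. The isoforms of Gm36703 lie at 1.08 to 2.71 and those of Gm35546 at -2.24 to 1.3, on both sides of 0.

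Transcripts far from genes leaned further toward TAC than those near genes. The median log2 difference was 0.17 over 113 transcripts under 1000 bases from a gene, 0.05 over 133 at 1000 to 5000 bases, 0.27 over 251 at 5000 to 50000 bases and 0.56 over 116 at 50000 bases or more. In the last class 85 of 116 (73.3%) were positive, and with loci summed 51 of 70 (72.9%), with a median of 0.49. Unspliced intergenic transcripts at that distance had a median of -0.05 over 283. Transcripts over a RefSeq lncRNA had a median of 0.44 (262 tested), those over a protein-coding gene 0.04 (115), those over a pseudogene -0.11 (26) and those on no RefSeq gene 0.23 (194). Where under 50 bases were missing the median was -0.06 (56). These are descriptions of transcripts that passed the filter, and the spread between replicates also rose with distance, from a median coefficient of 0.298 to 0.459.

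**Figure D5:**
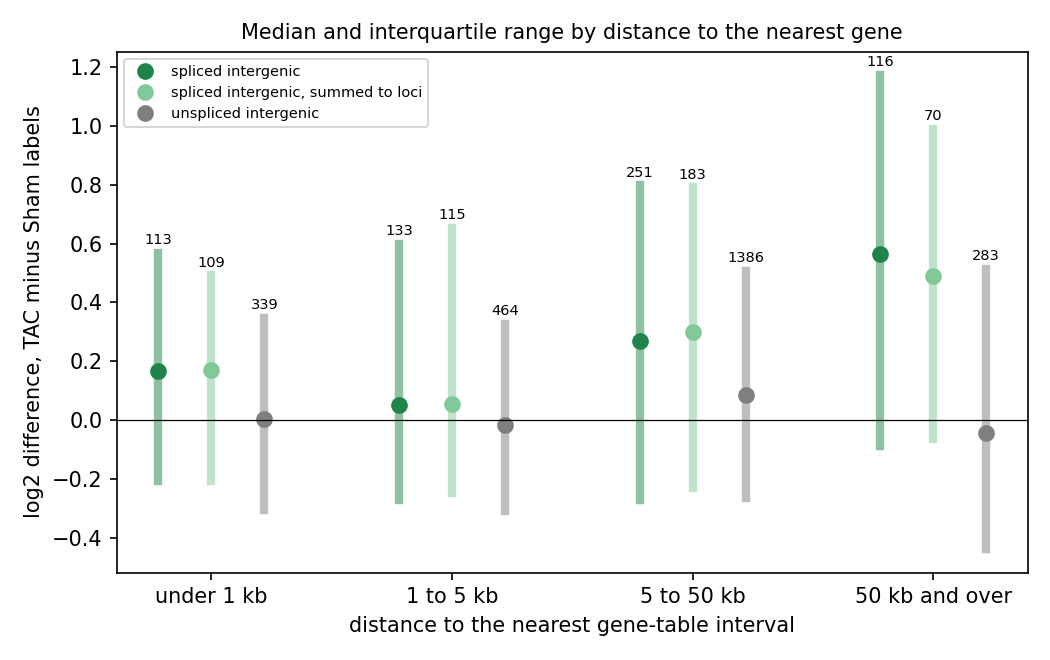
Median (point) and interquartile range (bar) of the log2 difference between libraries labelled TAC and Sham, by distance to the nearest gene, with the number tested above each bar. Spliced intergenic transcripts reach 0.56 at 50 kb and over, and unspliced ones lie between -0.05 and 0.09.

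Across 458 transcripts with a tested nearest gene, the log2 differences of transcript and gene had a Pearson correlation of 0.12, and of 0.27 over the 105 under 1000 bases. For unspliced intergenic transcripts it was 0.29 over 1999 and 0.48 over 308. These are descriptions across transcripts that share libraries, and some share a gene. The nearest gene passed the test for 13 transcripts. These lie at 6 of the 340 genes nearest to the 458 transcripts, against 1.43% of all genes tested. Of the 13, 7 neighbour Ankrd1 and are isoforms of 1 locus. At Col12a1, a collagen gene, the gene fell in TAC by 3.31 on the log2 scale, while NONMMUT070161.2, 79688 bases away, was at 1.94, 1.09 and 2.19 CPM in TAC and 0.454, 0.0373 and 0.497 in Sham (log2 2.45 ± 0.70, edgeR adjusted p = 0.261). At Paqr9, a receptor family gene, gene and transcript leaned the same way: the gene rose by 0.69, and NONMMUT135185.1, 671 bases away, was at 1.23 ± 0.37 (adjusted p = 0.276). These transcripts were named after their values were seen.

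Among transcripts with a mean of at least 0.5 FPKM, the 5 widest intervals included a neighbouring pair toward S1pr1, which encodes a sphingosine-1-phosphate receptor. MSTRG.23808.1 spans chr3:115323905-115497358 with 6223 bases of transcript and was at 11.8, 9.21 and 16.0 CPM in TAC and 5.10, 2.39 and 5.42 in Sham (log2 1.53 ± 0.36, edgeR adjusted p = 0.215). NONMMUT044864.2, at chr3:115513980-115641608, was at 21.2, 18.3 and 29.7 CPM in TAC and 11.4, 12.3 and 7.63 in Sham (log2 1.14 ± 0.26, adjusted p = 0.212). Neither pair of groups overlaps, and S1pr1, 68824 bases from the nearer, was at -0.04 (adjusted p = 0.949). NONMMUT101759.1 (chr17:10007709-10196190, Gm34972) was at 0.0450, 0.0475 and 5.24 CPM in TAC and 2.47, 7.61 and 13.2 in Sham, with TAC 3 inside the range of Sham. NONMMUT106972.1 and NONMMUT018276.2, with 141540 and 102706 bases missing, were at 0.149 to 0.757 and 5.01 to 17.8 CPM over the 6 libraries, and their groups overlap. At the same minimum level, the smallest shares of the interval were in NONMMUT106972.1, NONMMUT019741.2, NONMMUT034116.2, NONMMUT135033.1 and NONMMUT135034.1, at mean levels of 0.691 to 1.07 FPKM.

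Some transcripts were carried by few libraries. In 35 of the 662, 1 library held over 50% of the counts, and in 5 it held all of them, as NONMMUT107785.1 with 455 counts in TAC 3 alone and MSTRG.13107.2 with 175 in TAC 1 alone. These 5 did not enter the test. NONMMUT010251.2 (chr11:65642257-65649838, Gm30786) had 1, 0 and 4 counts in TAC 1, 2 and 3 and 27, 33 and 30 counts in Sham 1, 2 and 3, with a log2 difference of -4.11 ± 0.70 (edgeR adjusted p = 0.147; DESeq2 adjusted p = 0.000847). This transcript and the 2 named before it were chosen after their values were seen. Of the 49 transcripts that did not enter the test, 7 had groups that do not overlap. At the edge of the rule, 10 transcripts had a summed count of exactly 60 and 4 that met the other conditions had 59. Among the 10, NONMMUT017560.2 had 13, 6 and 41 counts in TAC and 0 in each Sham library. Among the 4 outside, NONMMUT027930.2 had 49 of its 59 counts in Sham 1.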

How the data were processed

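Per the submitters' processing notes, HISAT2 2.0.4, StringTie 1.3.0 and the build GRCm38 (mm10) were used; the sources used here give no annotation, counting program or strand setting. Per the file headers, the tables the authors deposited hold, for each gene or transcript, a count and an FPKM value in every library. Library size was the total implied by the deposited FPKM values. edgeR 4.0.16 (quasi-likelihood, TMM, filterByExpr with a minimum count of 10, no block, Benjamini-Hochberg over each whole table) ran in R 4.3.3 and was tested on simulated data. SE is the absolute log2 difference over the square root of F. Loci join overlapping members. RefSeq models came from GRCm38.p6.

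The transcripts named are those past an adjusted p of 0.05, the 12 of highest mean FPKM, the 8 of smallest p per direction with groups that do not overlap and a mean FPKM of at least 0.5, the 5 widest and the 5 with the smallest ratio of length to interval at that same mean FPKM, those at the count threshold, and the most abundant of the 3 largest loci; other transcripts, such as further isoforms of the loci described, those at the MEF2 windows and those that span microRNAs, were chosen after their values were seen. The members and lists were chosen with earlier results of these data known. Alternatives were DESeq2 1.42.0, limma 3.58.1 on log2(FPKM + 0.1), also with 1 or 0.01 as pseudocount, other scalings and filters, a replicate block, each library left out and other member rules.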

Additional observations from a re-analysis of the deposited data

How the results depend on the processing

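The median log2 difference of the set stayed positive under every alternative run. Scaling shifted all transcripts: with totals without TMM the median of all tested transcripts was 0.12 and that of the set 0.33, and with scaling factors from genes these were 0.18 and 0.40. With limma on log2(FPKM + 1) the set was at 0.11 and on log2(FPKM + 0.01) at 0.33. It was 0.12 at a summed count of at least 120 (86 transcripts with groups that do not overlap), 0.37 at 5000 bases or more from a gene (88 such transcripts), and 0.33 without transcripts on RefSeq protein-coding models. Leaving out each library gave 0.14 to 0.30.

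The count of 1 called transcript became 19 with DESeq2, 2 with scaling factors from genes, 2 with limma on log2(FPKM + 0.1) (0.162% of all), 0 without a low-count filter and 2 with isoforms summed to loci. Leaving out each library gave 0 to 2 calls. Deviations of same-numbered libraries from their group means had correlations of -0.04, -0.07 and -0.01 over lncRNA transcripts. Over genes these were -0.14, -0.12 and -0.10. With 3 libraries per group such values cannot exclude that equal numbers share a litter or day. With the replicate block edgeR called 0 of the 613, against 11 of 16035 transcripts. NONMMUT019347.2 passed in 9 of 17 alternatives (log2 1.04 to 2.07; adjusted p up to 0.292). NONMMUT013296.2 changed sign without Sham replicate 3 (-0.043; -0.043 to 0.084 over the libraries left out), and NONMMUT096375.1 (0.0021) and NONMMUT059018.2 (0.015) with scaling factors from genes. The cause was not tested. Summing to loci, the minimum of 50 missing bases and leaving out protein-coding models were chosen after seeing the data. The median summed count was 145 over 6 libraries and the median coefficient of variation between replicates was 0.355. Which of these limits the number of calls was not tested.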
